A study of Mus musculus with 95 samples.

Results

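The effect of diabetes on untreated dorsal root ganglia (DRG) was examined in 11 libraries of the 95 in this study, namely 5 from db/db mice and 6 from db/+ mice. They were chosen by their titles, which give the tissue, the genotype and a replicate number, and each library was made from another animal. All were male mice of the BKS.Cg-m +/+ Leprdb/J strain aged 16 weeks, on standard diet without drug. db/db mice carry the db mutation on both copies of Lepr, the leptin receptor gene, and become obese and diabetic, whereas db/+ mice carry it on one copy and served as non-diabetic controls. By its name the stock also holds the coat colour allele m (misty) on the chromosome without db, so db/+ mice carry that allele as well. The mutation is in every cell of the animal, so effects of diabetes, of obesity and of lost leptin signalling cannot be told apart in this comparison. Libraries from pioglitazone-fed (PIO) mice and from sciatic nerve (SCN) of the same study were used only for reference: the PIO-fed DRG pair held 12 libraries and the untreated SCN pair 12.

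DRG hold the cell bodies of the sensory neurons that carry pain, temperature, touch and position sense to the spinal cord. Each cell body is wrapped by satellite glia, and its axon by Schwann cells, with resident macrophages and a dense, leaky capillary bed between them. In diabetes the ganglia are exposed to high glucose and lipids, and the longest sensory axons degenerate first, which is known as diabetic peripheral neuropathy. Genes known to respond in sensory neurons to axon damage include neuropeptides such as neuropeptide Y and galanin and the transcription factor gene Sox11.

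Expression was given as FPKM, the number of sequenced fragments scaled to the length of the transcript and to all fragments mapped, for 25407 genes, and the number of reads behind each value was not given with it. Between 16125 and 17794 genes were listed at 0 in a library. These zeros included abundant genes: of 515 genes averaging 50 FPKM or more, 455 were at 0 in 1 or more of the 11 libraries, and Actb and the sensory neuron genes Calca, Tac1 and Prph were listed at 0 in all 11. A 0 was therefore read as a missing value, and genes were tested only with 3 or more values in each group. Of 16 sensory neuron markers 12 were listed at 0 throughout, so the identity of the tissue could be checked on 4 only. Nefl, the light neurofilament chain of sensory axons, was at 2886.32, 3089.13 and 3139.32 FPKM in db/db replicates 1, 2 and 4 and listed at 0 in replicates 3 and 5, against 3512.86 to 3733.85 FPKM in the 6 db/+ libraries. The Schwann cell markers Mbp, Pmp22, Prx and Mag were listed at 0 throughout. Of the list of Schwann cell and myelin genes only 5 could be tested, and 0 passed by limma, with 2 at an unadjusted p under 0.05 and a median of -0.04.

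Some libraries stood apart. db/db replicate 3 had a summed skeletal muscle marker level of 471.3 FPKM, against 2.05 to 10.5 FPKM in the other db/db and 3.82 to 49.5 FPKM in the db/+ libraries, and its Acta1, muscle actin, was at 109.24 FPKM. The sum was over 12 muscle genes, of which Tnnt3 was listed at 0 throughout, and a gene listed at 0 adds nothing to such a sum. Its median was 2.96 FPKM in db/db and 17.2 FPKM in db/+. Of 10 skeletal muscle genes tested 7 were positive, with a median of 0.21, and 0 passed by limma, with 2 at an unadjusted p under 0.05. These were Ckm, muscle creatine kinase, at -1.43 (adjusted p = 0.0791), and Myh4, a fast myosin, at -1.01 (0.0551), both listed at 0 in db/db replicate 3. Of 5 red cell genes tested, 0 passed by limma and 0 had an unadjusted p under 0.05. Over 730 genes with a value of 1 or more throughout, db/+ replicate 5 correlated best with a db/db library, replicate 2 (Pearson r across genes 0.990), and less well with its own group (mean r 0.980). S100a9, a granulocyte gene, was low in that library and in db/db replicates 2 and 4 alike (14.62, 15.76 and 16 FPKM), against 51.24 to 302.9 FPKM in the other 8. The part of these cell types in the results was not tested, but counts are also given without db/db replicate 3 and db/+ replicate 5.

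Lepr itself (chr4:101390009-101487957, mm9) was low in both groups, at 0.41, 0.26, 0.28, 0.36 and 0.4 FPKM in db/db and 0.39 to 0.66 FPKM with a median of 0.57 FPKM in db/+. The db/db libraries lay at the low end, with 1 db/+ library inside their range. It fell below the minimum level and was not tested, and a value per gene does not separate the long receptor form that the db mutation disrupts from the short forms.

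Of 3829 genes tested, 158 differed between db/db and db/+ DRG, or 4.13% (limma, Benjamini-Hochberg adjusted p under 0.05). Of these, 107 were higher in db/db (2.79% of genes tested) and 51 were lower (1.33%). The changes were mostly small. Their median absolute log2 fold change was 0.40, and 30 reached a fold change of 1.5, of which 23 were higher. Fold changes here are of log2(FPKM + 1), and the added 1 makes those of genes with low FPKM too small. The median over all genes tested was 0.01. The ranges of the groups did not overlap for 136 of the 158 genes, against 17.4% of all genes tested, and 799 genes, the 158 included, had an unadjusted p under 0.05. In whole ganglia, more cells of a type and more RNA per cell cannot be told apart. Without db/db replicate 3 the count was 115, of which 98 were among the 158, and without db/+ replicate 5 it was 156, of which 136 were among them. The count was 90 without db/+ replicate 1 or 3, 91 without db/+ replicate 6, 94 without db/db replicate 1 or 2 and 97 without db/db replicate 5.

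**Figure D1:**
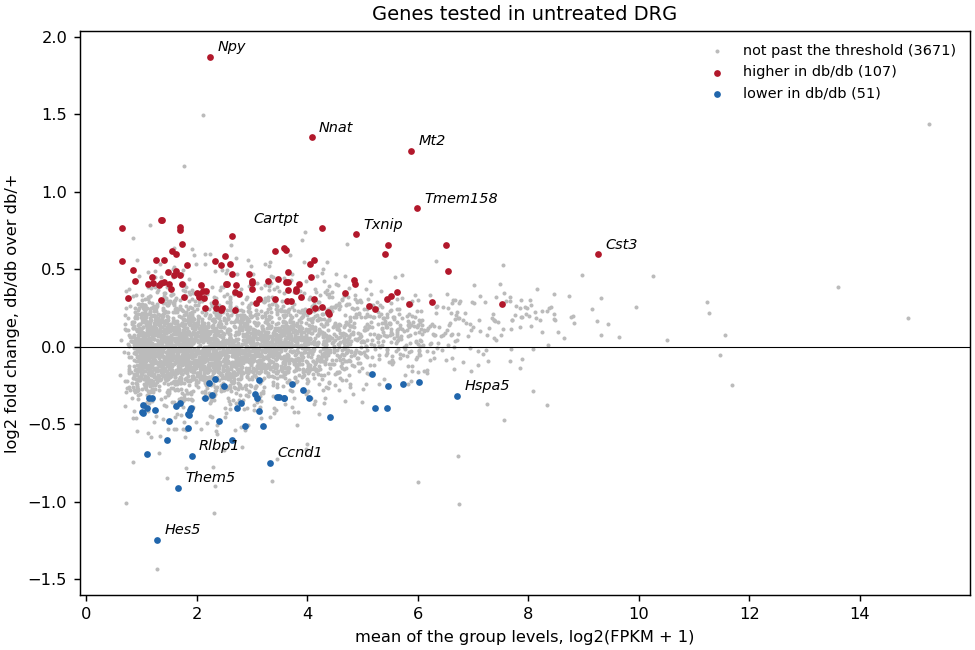
Genes tested in untreated DRG. Each point is a gene, placed by its mean level over both groups (x axis, log2(FPKM + 1)) and its log2 fold change, db/db over db/+ (y axis), with genes past an adjusted p of 0.05 in red (107 higher in db/db) and blue (51 lower). Npy and Hes5 lie at the upper and lower ends among the genes past the threshold.

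The largest rise past the threshold was in Npy, a neuropeptide gene. Npy (chr6:49772709-49779506, mm9) encodes neuropeptide Y, a transmitter that sensory neurons make after axon injury. Its level was 10.65, 2.91, 9.2, 12.51 and 6.26 FPKM in db/db, against 0.44 to 2.32 FPKM with a median of 1.45 FPKM in db/+. Every db/db library was above every db/+ library, although db/db replicate 2 lay close to them. The log2 fold change was 1.87 ± 0.34 (SE), or 3.66-fold (limma, adjusted p = 0.00416).

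Cartpt, the precursor of the CART peptides, was at 26.38, 20.64 and 25.62 FPKM in db/db replicates 1, 4 and 5, with a 0 in the others, against 12.71 to 14.83 FPKM in the 4 db/+ libraries with a value. The groups did not overlap, and the log2 fold change was 0.76 ± 0.10 (adjusted p = 0.00421). Nnat (chr2:157385814-157388258, mm9), which encodes neuronatin, a small membrane protein of the endoplasmic reticulum of neurons and endocrine cells, was at 22.28, 25.85 and 30.11 FPKM in db/db replicates 1 to 3 and 8.5 to 10.79 FPKM in 4 db/+ libraries. It was 2.55-fold higher in db/db (log2 fold change 1.35 ± 0.13, adjusted p = 0.000664). Inha, the inhibin alpha subunit, and Thbs4, the matrix protein thrombospondin 4, which is known to rise in injured sensory neurons, also rose, by 0.55 ± 0.11 and 0.82 ± 0.14 on the log2 scale (adjusted p = 0.00584 and 0.00302).

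Of the 5 peptidergic nociceptor genes tested, all 5 had a positive log2 fold change, with a median of 0.41, but only Npy and Cartpt passed. Galanin (Gal) was at 32.53, 38.51, 42.74, 21.37 and 28.92 FPKM in db/db and 21.71 to 25.51 FPKM in 4 db/+ libraries, and did not pass (0.41 ± 0.21, adjusted p = 0.267). Of 8 axon injury and regeneration genes tested, 7 were positive with a median of 0.40 and 2 passed, Npy and Sox11. Sox11, a transcription factor of growing and regenerating neurons, was at 2.3, 1.6, 1.41, 2.04 and 2.03 FPKM in db/db and 1.07 to 1.28 FPKM in db/+, so that the groups stood apart by a narrow margin (0.40 ± 0.10, adjusted p = 0.0346). It passed in 3 of 11 fits that left out 1 library, with an adjusted p up to 0.0903 without db/db replicate 1. Sprr1a, a cornifin made by regenerating axons, was at 5.38, 1.66, 5.26, 4.65 and 3.38 FPKM in db/db and 0.59 to 2.92 FPKM in db/+. Its change was large but varied between libraries, and it narrowly missed the threshold (1.16 ± 0.36, adjusted p = 0.0654).

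**Figure D2:**
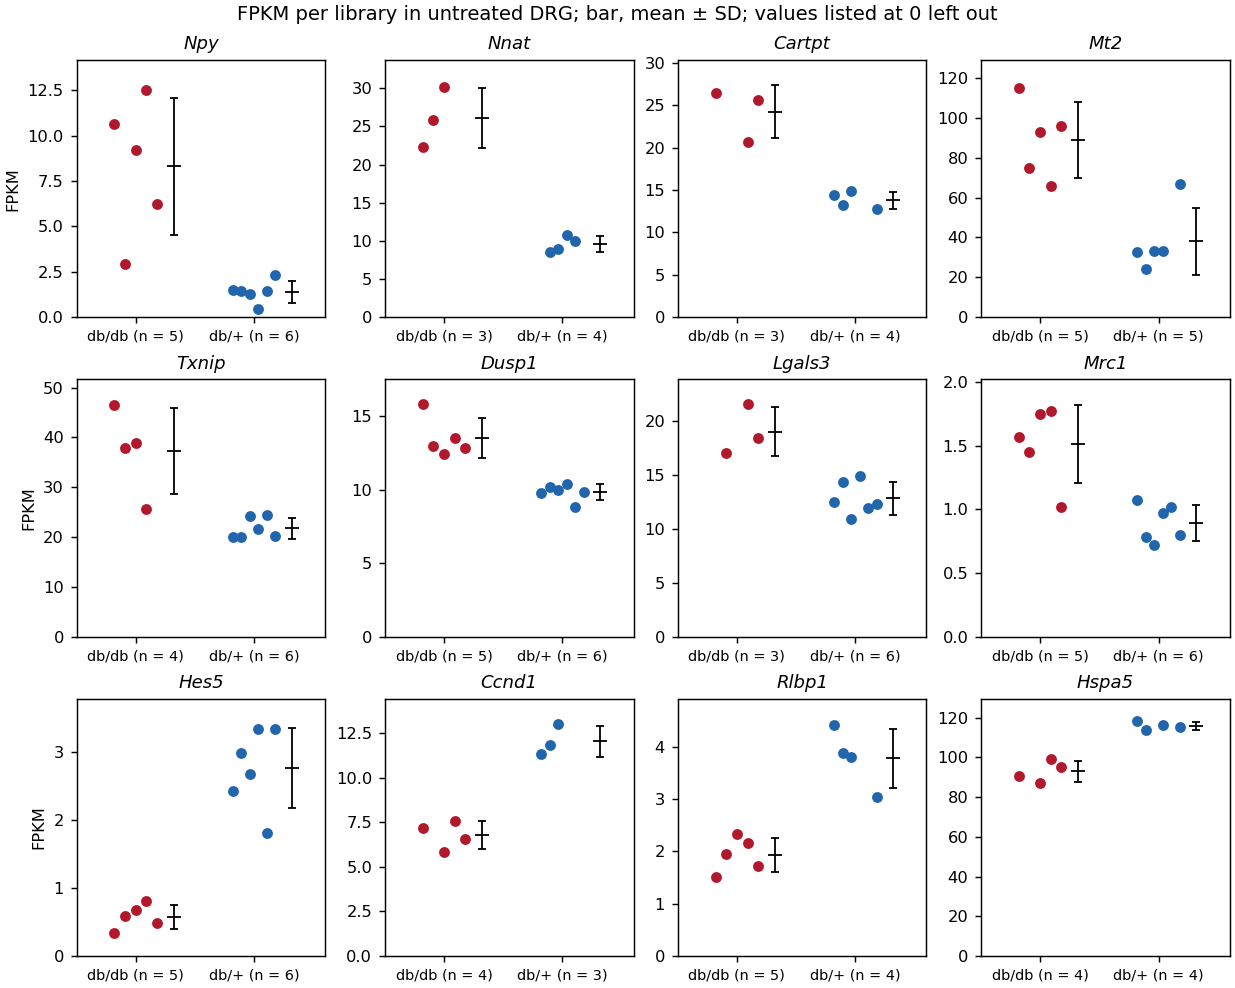
FPKM of 12 genes in each untreated DRG library. Red points are db/db and blue points db/+ libraries, black bars show the mean ± SD, n is the number of libraries with a value above 0, and each y axis starts at 0. Only for Mt2 and Mrc1 do the 2 groups overlap, and Hes5, Ccnd1, Rlbp1 and Hspa5 are lower in db/db. The 12 were picked from the 158 genes past the threshold, of which 136 had groups apart, against 17.4% of all genes tested.

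Among structural and excitability genes of neurons, few passed. None of the 3 axonal cytoskeleton genes tested did. Nefl was 0.24 ± 0.10 lower on the log2 scale in the 3 db/db libraries with a value (adjusted p = 0.184), Ina, alpha-internexin, had a log2 fold change of -0.35 ± 0.15 (adjusted p = 0.192), and Tubb2b, a tubulin of growing axons, one of 0.25 ± 0.07 (adjusted p = 0.102). Nefl and Tubb2b passed when only the db/db and db/+ libraries were fitted (adjusted p = 0.0403 and 0.0431). Of 10 potassium channel genes tested, 2 passed, both higher, and the median of the list was -0.06. Kcnk3, the acid-sensitive leak channel TASK-1, was at 8.61, 7.65 and 8.54 FPKM in db/db replicates 2, 4 and 5 and 5.52 to 6.51 FPKM in the 6 db/+ libraries (0.41 ± 0.09, adjusted p = 0.0156). Kcnk12, a related leak channel subunit, was between 11.26 and 15.35 FPKM in db/db, against 8.53 to 11.7 FPKM in db/+, with overlap (0.37 ± 0.10, adjusted p = 0.0321). Kcnk12 passed in 5 of 11 fits that left out 1 library (up to an adjusted p of 0.0927 without db/db replicate 2).

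Cacng4, a subunit that regulates AMPA receptors, fell to 2.07, 1.67, 2.11, 1.65 and 2.91 FPKM in db/db, against 2.71 to 3.42 FPKM in db/+ (-0.43 ± 0.12, adjusted p = 0.0399), and passed in 2 of 11 such fits (up to 0.103 without db/db replicate 2). Unc5c, a netrin receptor for axon guidance, was between 1.27 and 1.46 FPKM in 4 db/db libraries, against 2.09 to 2.56 FPKM in db/+, without overlap (-0.48 ± 0.11, adjusted p = 0.0169). Oprd1, the delta opioid receptor, was between 3.74 and 4.05 FPKM in db/db, against 5.1 to 6.38 FPKM in 5 db/+ libraries. Its groups also stood apart, but it did not pass with all 4 DRG groups in the fit (-0.45 ± 0.14, adjusted p = 0.0802), and passed with only the db/db and db/+ libraries in it (adjusted p = 0.00164). Of the sodium, calcium and TRP channel lists 1 gene each was tested, and none passed.

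Metallothioneins, small metal-binding proteins that rise with zinc, glucocorticoids and oxidants, were both higher in db/db. Mt2 (chr8:96696518-96697467, mm9) was at 114.72, 74.96, 92.68, 65.76 and 95.64 FPKM in db/db and 23.93 to 66.93 FPKM with a median of 33.14 FPKM in 5 db/+ libraries. A single db/+ library, replicate 6, reached the db/db range. The log2 fold change was 1.26 ± 0.24, or 2.4-fold (adjusted p = 0.00485). Mt1, its neighbour on chromosome 8, was between 97.4 and 127.64 FPKM in db/db, against 60.48 to 94.81 FPKM in 5 db/+ libraries (0.66 ± 0.17, adjusted p = 0.0299), and passed in 4 of 11 fits that left out 1 library (up to 0.0729 without db/+ replicate 1).

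Txnip and Arrdc4 encode alpha-arrestins that restrain glucose uptake and whose transcription is induced by glucose. Txnip (chr3:96361880-96365806, mm9) was at 46.48, 37.94, 38.82 and 25.65 FPKM in db/db replicates 1 to 4, against 19.92 to 24.41 FPKM in the 6 db/+ libraries. All 4 db/db values were above those of db/+ (0.72 ± 0.14, or 1.65-fold, adjusted p = 0.00663). Arrdc4 was at 14.07, 12.14, 9.94, 11.49 and 12.15 FPKM in db/db and 7.59 to 9.43 FPKM in 5 db/+ libraries (0.44 ± 0.11, adjusted p = 0.0346), and passed in 3 of 11 fits that left out 1 library (up to 0.0923 without db/+ replicate 1). Sord, the enzyme that turns sorbitol into fructose in the polyol pathway of glucose, was lower by a small step, between 29.94 and 35.95 FPKM in db/db, against 36.56 to 38.58 FPKM in db/+ (-0.18 ± 0.05, adjusted p = 0.0323, 4 of 11 fits, up to 0.0792 without db/db replicate 3). The other 2 genes of the polyol list tested did not pass.

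The sequences just before the start of Mt2 and Txnip are shown because each holds the letters of the element through which metal or glucose is known to act on that gene. They are RefSeq promoters on GRCm38.p6, printed 5′ to 3′ along the gene. For Mt2 the stretch is chr8:94172368-94172617 on the plus strand, and the capitals mark 3 metal response elements (TGCACNC or TGCGCNC on either strand). For Txnip it is chr3:96557807-96557956 on the plus strand, and the capitals mark a carbohydrate response element (CACGNG, 5 bases of any kind, CACGNG, on either strand).
Mt2: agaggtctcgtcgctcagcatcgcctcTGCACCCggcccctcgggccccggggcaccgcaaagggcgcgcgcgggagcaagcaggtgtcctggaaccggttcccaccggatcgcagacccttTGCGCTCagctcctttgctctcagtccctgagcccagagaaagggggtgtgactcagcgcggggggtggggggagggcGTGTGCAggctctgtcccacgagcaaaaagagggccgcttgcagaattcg
Txnip: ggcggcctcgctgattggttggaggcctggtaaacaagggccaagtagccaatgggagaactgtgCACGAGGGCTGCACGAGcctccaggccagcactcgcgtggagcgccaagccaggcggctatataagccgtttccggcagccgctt
The metal response motif is common, in the promoter windows (250 bases before to 50 after the start) of 28.2% of 27025 genes, and the carbohydrate response motif was in 15 of them (0.0555%). Of 34 higher genes named by the selection rule, 27 matched the promoter table; 12 of these held the metal motif, as did 2 of the 13 matched genes that were lower, and 1, Txnip, held the carbohydrate motif. Such matches describe the sequence and do not show a bound site.

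**Figure D3:**
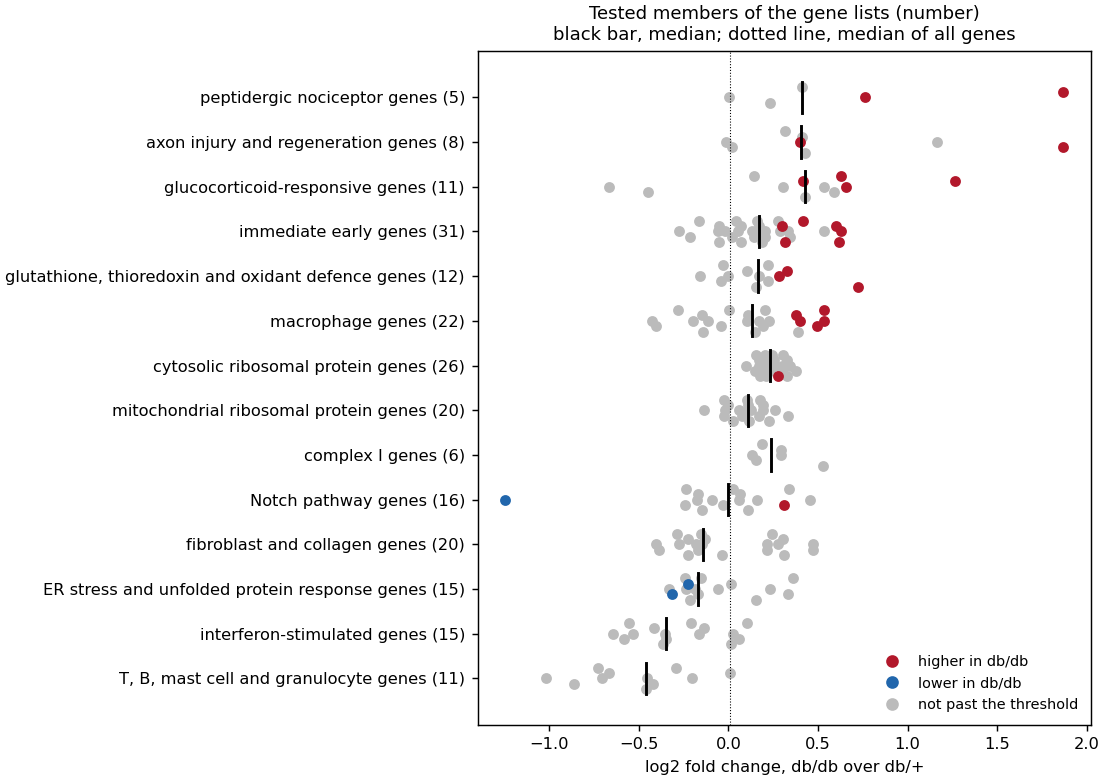
Log2 fold change, db/db over db/+ (x axis), of each tested member of 14 gene lists, with the number tested in brackets. Red and blue points passed the threshold, grey points did not, the black bar is the list's median and the dotted line the median of all genes (0.01). All 26 cytosolic ribosomal protein genes lie to the right of 0, and 10 of 11 granulocyte and lymphocyte genes to the left.

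Glucocorticoid-responsive genes were among the higher groups: 9 of 11 tested were positive with a median of 0.43, and 4 passed, all higher, namely Mt1, Mt2, Dusp1 and Nfkbia. Of all genes tested, 4.13% passed. The list was not uniform: its lowest log2 fold change was -0.67, and 1 member passed as lower with only the compared groups fitted. Dusp1 (chr17:26642535-26645464, mm9), a phosphatase that switches off MAP kinases, was at 15.87, 12.98, 12.41, 13.56 and 12.86 FPKM in db/db and 8.86 to 10.37 FPKM in db/+. The groups were well apart (0.42 ± 0.07, adjusted p = 0.00294). Nfkbia, the inhibitor of NF-kappaB, was at 15.34, 17.19, 11.91, 13.89 and 13 FPKM in db/db and 6.97 to 10.46 FPKM in 5 db/+ libraries, also without overlap (0.63 ± 0.14, adjusted p = 0.0149). Pdk4, a kinase that turns off pyruvate oxidation, did not pass (0.59 ± 0.23, adjusted p = 0.147), and its highest value, 9.34 FPKM, was in db/db replicate 3, the library with muscle transcripts. Fkbp5, a common glucocorticoid marker, was listed at 0 in all 11 libraries.

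Of 31 immediate early genes, which are switched on within minutes by stimuli, 24 were positive with a median of 0.17, and 6 passed, all higher. Besides Dusp1 and Nfkbia they were Jund, Klf2, Klf4 and Btg2. Jund, a subunit of the AP-1 factor, was at 57.59, 47.03, 45.21 and 54.62 FPKM in 4 db/db libraries and 28.6 to 38.53 FPKM in 4 db/+ libraries (0.60 ± 0.15, adjusted p = 0.0314). Klf2, a transcription factor of endothelium and leukocytes, was between 2.42 and 2.88 FPKM in db/db, against 0.76 to 2.12 FPKM in db/+ (0.62 ± 0.17, adjusted p = 0.0463). Klf4 and Btg2 rose by 0.30 ± 0.08 and 0.32 ± 0.09 (adjusted p = 0.0361 and 0.0463), with overlapping groups. These 4 were close to the threshold. They passed in 6, 1, 4 and 2 of 11 fits that left out 1 library, and without db/+ replicate 1 their adjusted p was 0.094, 0.0961, 0.092 and 0.104. The best known members, Fos (log2 fold change -0.17) and Egr1 (0.07), did not pass. The list held 3 calls without db/db replicate 3, and 2 without db/+ replicate 1, 3 or 6 or without db/db replicate 1.

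A cyclic AMP response element (CRE, TGACGTCA, the same on both strands) was in the promoters of 3 of the 27 matched genes that rose, Cartpt, Dusp1 and Btg2, of 0 of the 13 matched genes that fell, and of 2.03% of all genes. The stretches of Cartpt (chr13:99900684-99900843) and Dusp1 (chr17:26508523-26508672), both on the minus strand of GRCm38.p6, are shown with the element in capitals.
Cartpt: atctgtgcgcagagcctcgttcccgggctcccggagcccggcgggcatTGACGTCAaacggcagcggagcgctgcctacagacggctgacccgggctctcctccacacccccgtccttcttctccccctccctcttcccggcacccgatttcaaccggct
Dusp1: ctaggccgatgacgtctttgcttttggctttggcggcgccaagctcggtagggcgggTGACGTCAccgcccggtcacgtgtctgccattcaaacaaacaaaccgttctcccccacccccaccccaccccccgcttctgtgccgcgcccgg
On both strands, the AP-1 site TGAGTCA was in 1 of the 27 and 1 of the 13, against 5.95% of all genes, the E-box CACGTG in 2 and 0, against 8.09%, and the CArG box in 0 and 1, against 1.81%.

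Some genes of the glutathione, thioredoxin and oxidant defence list rose, among them Txnip, which inhibits thioredoxin and is not a defence gene itself. Of 12 tested, 8 were positive with a median of 0.16, and 3 passed, all higher: Txnip, Gsta4 and Nqo1. Nqo1, a quinone reductase and target of the NRF2 factor, was at 8.49, 8.42, 9.01, 8.09 and 7.45 FPKM in db/db and 6.26 to 7 FPKM in 5 db/+ libraries, without overlap (0.28 ± 0.06, adjusted p = 0.0146). Gsta4, which clears the lipid peroxidation product 4-hydroxynonenal, was between 46.08 and 53.35 FPKM in 4 db/db libraries, against 37.1 to 43.18 FPKM in 4 db/+ libraries (0.33 ± 0.09, adjusted p = 0.0418), and passed in 4 of 11 fits that left out 1 library (up to 0.111 without db/+ replicate 1). Aldh2, a mitochondrial aldehyde dehydrogenase, was lower, between 32.52 and 43.71 FPKM in 4 db/db libraries, against 44.69 to 48.76 FPKM in 5 db/+ libraries (-0.25 ± 0.07, adjusted p = 0.0418, 2 of 11 fits, up to 0.0954 without db/db replicate 3).

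A pair of chaperone genes of the endoplasmic reticulum passed, both lower. Of 15 ER stress and unfolded protein response genes tested, 10 were negative with a median of -0.17 and 2 passed, both lower. Hspa5 (chr2:34627490-34632051, mm9), the chaperone BiP, was at 90.68, 87.02, 98.94 and 95.33 FPKM in db/db, with a 0 in replicate 2, and 113.61 to 118.3 FPKM in 4 db/+ libraries. Pdia6, a protein disulfide isomerase, was at 59.52, 58.9 and 58.95 FPKM in db/db replicates 3 to 5 and 65.13 to 72.36 FPKM in 5 db/+ libraries. Neither gene's groups overlapped, and the steps were small, -0.32 ± 0.07 and -0.23 ± 0.05 (adjusted p = 0.0272 and 0.0247). Hspa5 passed in 6 of 11 and Pdia6 in 6 of 8 fits that left out 1 library, both up to an adjusted p without db/+ replicate 1, of 0.0729 and 0.0623. Of the list, 0 members passed without db/+ replicate 1 (median -0.19), db/+ replicate 6 (-0.21) or db/db replicate 3 (-0.12).

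Hspa5 and Pdia6 both hold an ER stress response element (CCAAT, 9 bases of any kind, CCACG, on either strand), which was in 37 of 27025 genes' promoters (0.137%) and through which misfolded protein is known to induce them. Their stretches, chr2:34771940-34772089 and chr12:17266439-17266588 on the plus strand of GRCm38.p6, are shown with the element in capitals.
Hspa5: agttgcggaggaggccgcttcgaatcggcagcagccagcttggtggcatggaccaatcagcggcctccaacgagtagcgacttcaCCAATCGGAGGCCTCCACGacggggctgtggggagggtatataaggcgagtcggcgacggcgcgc
Pdia6: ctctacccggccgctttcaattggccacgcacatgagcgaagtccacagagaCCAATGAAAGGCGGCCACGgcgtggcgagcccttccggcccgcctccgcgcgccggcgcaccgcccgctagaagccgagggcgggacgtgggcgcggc
No other of the 40 matched genes held it.

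Macrophage genes rose in part. Of 22 tested, 14 were positive with a median of 0.13, and 5 passed, all higher. Lgals3, galectin-3, a lectin of phagocytic macrophages that injured neurons also make, was at 17.02, 21.51 and 18.42 FPKM in db/db replicates 2, 4 and 5 and 10.91 to 14.89 FPKM in db/+, without overlap (0.54 ± 0.10, adjusted p = 0.00416). Mrc1, the mannose receptor of tissue macrophages, was at 1.57, 1.45, 1.75, 1.77 and 1.02 FPKM in db/db and 0.72 to 1.07 FPKM in db/+, with 1 db/db library inside the db/+ range (0.40 ± 0.09, adjusted p = 0.0163). Cd163, the haemoglobin scavenger receptor, was between 0.76 and 1.3 FPKM in 4 db/db libraries, against 0.23 to 0.76 FPKM in db/+ (0.49 ± 0.11, adjusted p = 0.0203).

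C1qc, a chain of complement C1q, was between 5.75 and 6.81 FPKM in 4 db/db, against 3.37 to 4.32 FPKM in 4 db/+ libraries (0.53 ± 0.12, adjusted p = 0.0207), and Csf1r, the growth factor receptor that macrophages need to survive, between 1.81 and 2.67 FPKM in db/db, against 1.18 to 1.78 FPKM in db/+ (0.38 ± 0.09, adjusted p = 0.023). F13a1, clotting factor XIII A, which tissue macrophages make, was higher as well (0.41 ± 0.10, adjusted p = 0.0285). C1qa did not pass (7.45 to 8.51 FPKM in db/db and 4.76 to 6.84 FPKM in db/+, adjusted p = 0.156). Genes of antigen presentation in the list ran the other way without passing: H2-Aa was between 3.2 and 4.88 FPKM in db/db, against 4.41 to 7.38 FPKM in db/+ (-0.43 ± 0.20, adjusted p = 0.218). Cd163, C1qc, Csf1r and F13a1 each lost the call without at least 1 library, with an adjusted p of 0.0601 without db/db replicate 5, 0.0546 without db/+ replicate 2, 0.0563 without db/db replicate 2 and 0.0524 without db/+ replicate 2. Without db/db replicate 3 the list had 4 calls and a median of 0.03. The sum of 7 macrophage markers was 40.2 to 67 FPKM in db/db and 12.3 to 62.2 FPKM in db/+. The lowest, in db/+ replicate 6, is a sum in which Lyz2 and C1qc were listed at 0.

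Other blood-borne cells showed no call. Of 11 genes of T, B and mast cells and granulocytes, 10 were negative with a median of -0.46, and 0 passed by limma, with 1 at an unadjusted p under 0.05. S100a9 was at 143.74, 15.76, 168.47, 16 and 51.24 FPKM in db/db and 14.62 to 302.9 FPKM with a median of 115.5 FPKM in db/+, so both groups spanned a wide range (-1.02 ± 0.87, adjusted p = 0.518). Without db/+ replicate 5, the db/+ library with the lowest level, the list median was -0.85 and 1 gene passed. Of 15 interferon-stimulated genes 11 were negative with a median of -0.35, and 0 passed, with 5 at an unadjusted p under 0.05. Ifit1 was at 4.26, 4.21, 3.76, 5.24 and 5.23 FPKM in db/db and 5.07 to 10.61 FPKM in 5 db/+ libraries (-0.65 ± 0.20, adjusted p = 0.0645).

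The largest fall past the threshold was in a Notch target. Hes5 (chr4:154335032-154336480, mm9), a repressor that Notch signalling induces in glia and their precursors, was at 0.34, 0.58, 0.67, 0.81 and 0.49 FPKM in db/db and 1.81 to 3.34 FPKM with a median of 2.83 FPKM in db/+. All 5 db/db libraries were below every db/+ library (-1.24 ± 0.16, adjusted p = 0.00029). Hes6, a related factor that promotes neuronal differentiation, was higher, at 17.08, 19.26, 19.68 and 17.76 FPKM in 4 db/db libraries and 14.06 to 15.37 FPKM in db/+ (0.31 ± 0.06, adjusted p = 0.00717). The other 14 of 16 Notch pathway genes tested did not pass, and the median was -0.0023.

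Ccnd1 (chr7:152115836-152125774, mm9), cyclin D1, which drives entry into the cell cycle and is made by satellite glia and Schwann cells, was at 7.17, 5.81, 7.59 and 6.55 FPKM in db/db and 11.32 to 13 FPKM in the 3 db/+ libraries with a value (-0.75 ± 0.13, adjusted p = 0.00416). None of the other 14 cell cycle genes tested passed, and the list's median was 0.03. Rlbp1, a carrier of retinaldehyde known from retinal glia, was at 1.51, 1.96, 2.33, 2.16 and 1.72 FPKM in db/db and 3.04 to 4.41 FPKM in 4 db/+ libraries, without overlap (-0.70 ± 0.13, adjusted p = 0.00416). Of the satellite glia list only 3 genes could be tested and 0 passed by limma, with 0 at an unadjusted p under 0.05; its marker Fabp7 was listed at 0 in all 11 libraries.

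Several genes of the extracellular matrix were among those that fell, but not all matrix genes did. Thbs4, which encodes the matrix protein thrombospondin 4, rose (0.82 ± 0.14, adjusted p = 0.00302). Matn4, matrilin 4, was at 3.73, 3.83, 4.45 and 4.13 FPKM in db/db and 5.6 to 7.46 FPKM in 3 db/+ libraries (-0.60 ± 0.12, adjusted p = 0.00717). Ncan, the proteoglycan neurocan, was at 2.31, 1.93 and 2.12 FPKM in db/db and 3.03 to 3.39 FPKM in 3 db/+ libraries (-0.44 ± 0.08, adjusted p = 0.0207), and Hapln1, a link protein that ties such proteoglycans to hyaluronan, between 6.02 and 6.84 FPKM in 4 db/db, against 7.64 to 8.67 FPKM in 5 db/+ libraries (-0.30 ± 0.07, adjusted p = 0.0286). Hapln1 passed in 6 of 11 fits that left out 1 library (up to 0.0796 without db/db replicate 1). Ibsp, bone sialoprotein, fell by 0.48 on the log2 scale (adjusted p = 0.0111). These genes were not a list of their own. Of 20 fibroblast and collagen genes, 0 passed by limma, with 6 at an unadjusted p under 0.05 and a median of -0.14.

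Lipid handling genes among the largest falls were Them5, a mitochondrial thioesterase that remodels cardiolipin, Lcat, which esterifies cholesterol on lipoproteins, and Pctp, a phosphatidylcholine carrier. Them5 was at 1.36, 1.15, 0.91, 1.34 and 1.75 FPKM in db/db and 2.8 to 4.2 FPKM in db/+ (-0.91 ± 0.13, adjusted p = 0.000427). Lcat was between 1.67 and 2.46 FPKM in db/db, against 2.76 to 3.74 FPKM in 4 db/+ libraries (-0.52 ± 0.10, adjusted p = 0.00421), and Pctp between 16.17 and 17.7 FPKM in 4 db/db, against 21.79 to 26.14 FPKM in 4 db/+ libraries (-0.46 ± 0.08, adjusted p = 0.00416). None of the 3 overlapped between groups. The same held for 136 of the 158 genes past the threshold, from which they were picked, and for 17.4% of all genes tested. Elovl4, which makes very long fatty acids, did not pass (-0.13 ± 0.04, adjusted p = 0.065). Of 3 cholesterol synthesis, 7 fatty acid and triglyceride synthesis and 10 fatty acid oxidation genes tested, 0 passed by limma, with 1, 2 and 3 at an unadjusted p under 0.05.

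Tmem158, a Ras-induced surface protein, was between 64.69 and 96.04 FPKM in db/db, against 34.51 to 59.68 FPKM in 5 db/+ libraries (0.90 ± 0.24, adjusted p = 0.0387), but passed in only 2 of 11 fits that left out 1 library (up to 0.101 without db/+ replicate 1). Steap1, of the STEAP family of membrane proteins, was at 3.41, 3.64, 2.48, 3.41 and 3.23 FPKM in db/db and 1.01 to 2.25 FPKM in db/+ (0.77 ± 0.15, adjusted p = 0.00485). Agxt2l1, an enzyme that degrades phosphoethanolamine, was between 0.73 and 1.43 FPKM in db/db, against 0.05 to 0.38 FPKM in db/+ (0.76 ± 0.12, adjusted p = 0.00244). Cst3, the abundant protease inhibitor cystatin C, was at 741.14, 794.88 and 733.41 FPKM in db/db replicates 1, 2 and 4 and 440.8 to 569.64 FPKM in 4 db/+ libraries (0.60 ± 0.12, adjusted p = 0.0159), and lost the call under quantile normalization (adjusted p = 0.24). The other genes among the 15 largest rises were Tmem114, Olfr920, Barx2, LOC100503842 and 2410006H16Rik (0.66 to 0.82), and among the 15 largest falls LOC100504676, LOC100502586, Clrn1 and Phlda1 (-0.69 to -0.51). Of these Barx2, LOC100504676, LOC100502586 and Clrn1 lost the call without at least 1 library, with an adjusted p up to 0.0727 without db/+ replicate 2, 0.117 without db/+ replicate 3, 0.0781 without db/db replicate 3 and 0.103 without db/db replicate 2.

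Housekeeping groups of the ribosome and the mitochondrion were mostly positive, although a single gene passed. All 26 cytosolic ribosomal protein genes tested were positive, with a median of 0.23, but 1 passed, Rps2, between 197.82 and 209 FPKM in db/db, against 141.22 to 183.07 FPKM in 5 db/+ libraries (0.28 ± 0.07, adjusted p = 0.0323). Rps2 did not pass after median-of-ratios rescaling (adjusted p = 0.0602) or quantile normalization (0.117), under which the list medians were 0.22 and 0.18, with 26 and 25 of 26 positive. Without db/db replicate 3, 21 of these genes were tested, all 21 were positive, and the median was 0.17. Many of the ribosomal protein genes have near-identical processed copies, so their values are uncertain. All 6 complex I genes tested were positive with a median of 0.24 and 0 passed by limma, with 2 at an unadjusted p under 0.05, such as Ndufc2 (0.29 ± 0.12, adjusted p = 0.178). Of 20 mitochondrial ribosomal protein genes, 16 were positive with a median of 0.11, and 0 passed, with 2 at an unadjusted p under 0.05. The highest db/db values of Ndufc2, Ndufa1, Ndufb6, Mrpl52 and Mrpl20 were in replicate 3, the library with muscle transcripts. Ndufc2 was at 277.81 FPKM there, against 175.5 to 211.11 FPKM in the other db/db libraries. The medians of these mitochondrial lists without replicate 3 were not computed. Of 15 insulin, IGF and leptin signalling genes 0 passed by limma, with 5 at an unadjusted p under 0.05. The nearest was Igfbp5, an IGF-binding protein, between 8.56 and 16.37 FPKM in db/db, against 12.55 to 23.08 FPKM in 5 db/+ libraries (-0.63 ± 0.18, adjusted p = 0.0589), which passed without db/+ replicate 5 (0.0205) or db/db replicate 1 (0.0326).

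The same genotype contrast was measured in DRG of other animals, fed pioglitazone at 15 mg/kg for 11 weeks. No library is shared between the pairs, but they share 1 estimate of the spread. There, 354 of 4095 genes tested (8.64%) differed between db/db PIO and db/+ PIO. With only the compared groups fitted, the count was 131 in PIO-fed and 544 in untreated DRG, so which pair held more calls depended on the fit. Of the 158 genes called in untreated DRG, 145 were tested in PIO-fed DRG, 136 had the same sign and 55 passed in the same direction, with 0 passing in the opposite one. Among all 3305 genes tested in both, 1867 had the same sign. Npy had a log2 fold change of 1.87 in untreated and 1.87 in PIO-fed DRG (adjusted p = 0.00317 in the PIO-fed), Mt2 1.26 and 1.81 (0.000166), Txnip 0.72 and 0.79 (0.00125), Hes5 -1.24 and -0.83 (0.00317), and Ccnd1 -0.75 and -1.15 (9.95e-06).

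A test of the difference between the genotype effects in untreated and PIO-fed DRG called 0 of 3305 genes (0%), with 452 at an unadjusted p under 0.05. Genes that passed in untreated DRG only were therefore not shown to respond otherwise in PIO-fed DRG. Lgals3 (0.54 and 0.10), Jund (0.60 and 0.02), Hes6 (0.31 and 0.02) and Sord (-0.18 and -0.04) were of this kind. Clrn1, Ibsp and Hapln1 had the opposite sign in PIO-fed DRG (0.13, 0.18 and 0.04), and the difference had an adjusted p of 0.165, 0.119 and 0.216.

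**Figure D4:**
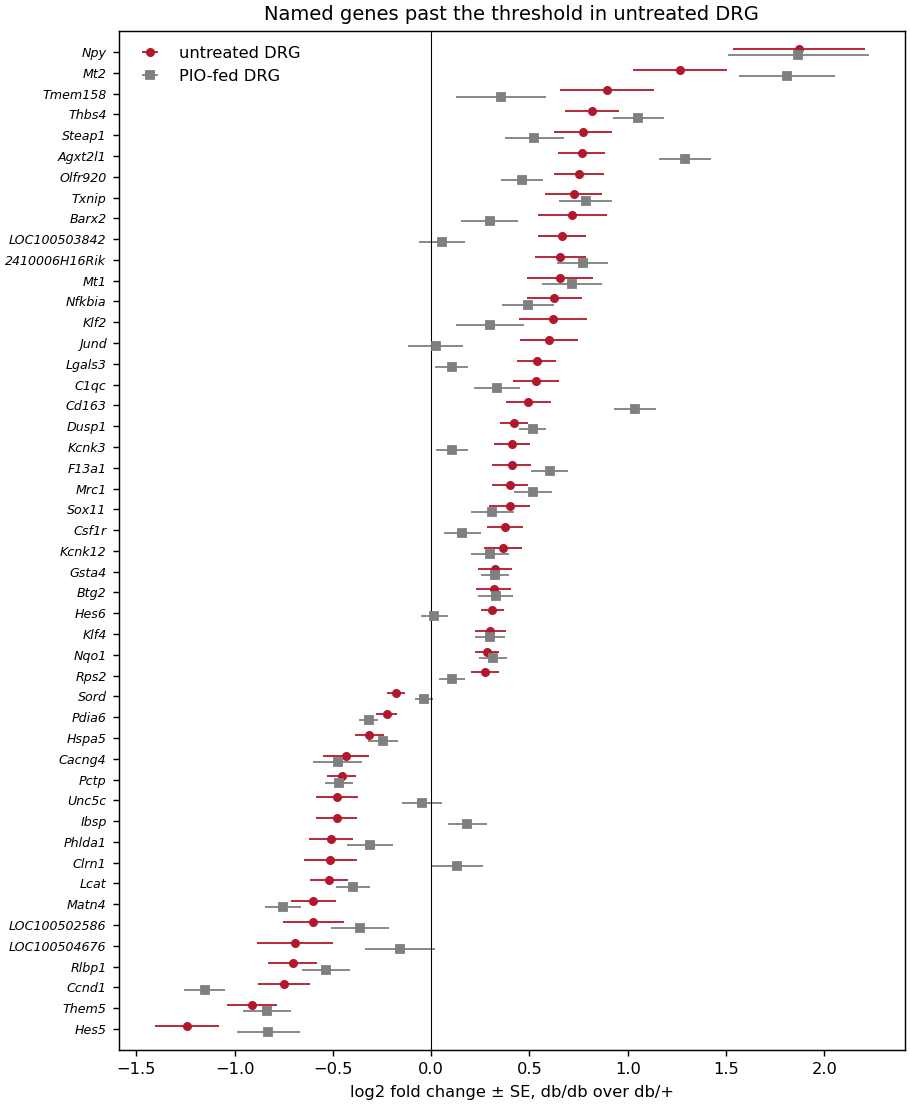
Log2 fold change ± SE, db/db over db/+ (x axis), of 48 genes named by the selection rule and past the threshold in untreated DRG that were also tested in PIO-fed DRG. Red circles are untreated and grey squares PIO-fed DRG. The sign is the same for 46 of the 48, the exceptions being Clrn1 and Ibsp.

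Set against the nerve trunk, 141 of 2234 genes (6.31%) had a genotype effect in DRG that differed from that in SCN, 81 of them with the higher effect in DRG. That balance depended on the scaling, since 70 of 155 calls had the higher effect in DRG under quantile normalization and 103 of 151 under median-of-ratios rescaling. The tissues were taken from the same groups of mice, so DRG and SCN libraries may share animals, which this test did not take into account. Of the 158 genes called in DRG, 97 could be compared and 24 of these differed. These genes were chosen for their effect in the same DRG libraries, which by itself raises that share above the 6.31% of all genes. Steap1 averaged 0.70 ± 0.28 FPKM in SCN of db/db (SD, n = 6) and 2.15 ± 2.04 FPKM in SCN of db/+ (n = 5), so that its means ran opposite to those in DRG (difference of effects 1.47, adjusted p = 0.00258). Tmem158, high in DRG, was at 2.20 ± 0.64 and 2.99 ± 1.06 FPKM in SCN of db/db and db/+ (n = 6 each; difference 1.18, adjusted p = 0.0226). Pctp and Ncan, lower in DRG of db/db, averaged 2.54 ± 0.91 and 1.14 ± 0.49 FPKM in SCN of db/db and 1.64 ± 0.70 and 0.24 ± 0.39 FPKM in SCN of db/+ (n = 6 each; differences -0.89 and -1.24, both adjusted p = 0.0143). Sord was at 43.6 ± 3.63 FPKM in SCN of db/db and 37.8 ± 2.41 FPKM in SCN of db/+ (n = 6 each; difference -0.38, adjusted p = 0.00138). The effects on Mt1, Txnip, Dusp1, Nfkbia and Arrdc4 were not shown to differ between the tissues, with differences of -0.11, 0.26, -0.06, 0.01 and -0.02 and adjusted p-values of 0.558 to 0.996. Nor was that on Npy, the largest rise in DRG (difference 0.61, adjusted p = 0.466). Npy averaged 2.80 ± 0.86 FPKM in SCN of db/db (n = 5) and 0.56 ± 0.20 FPKM in SCN of db/+ (n = 3).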

How the data were processed

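The authors aligned paired reads to the mouse genome (NCBI 37, mm9) with TopHat and deposited 1 table per library with an FPKM value per gene, computed with Cufflinks per the labels. The study gives read totals as means per tissue, not per library, so the depth of each library is unknown. Versions and the handling of loci that gave 0 were not given in the sources used here. FPKM were set to log2(FPKM + 1), a 0 was read as missing, and genes with 1 FPKM or more in 5 or more of the 23 DRG libraries and 3 or more values in each compared group were tested. All 4 DRG groups entered 1 fit in limma 3.58.1 (R 4.3.3, lmFit and eBayes with trend), with Benjamini-Hochberg adjustment over all genes tested and a threshold of 0.05. The number of values limits the precision. In 10 simulated sets with 3829 genes, 200 of them changed, the fit recovered 71.5% of changes of 0.5 and 97.6% of changes of 1 on the log2 scale for db/db against db/+, with 4.79% false calls. The simulated noise was independent between genes and libraries. It held none of the differences between whole libraries seen in the data, so these shares may not hold for the real calls.

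The members, the gene lists and the tests were chosen with earlier results of these data known. Named genes were the 15 largest rises and 15 largest falls past the threshold whose sign held when any 1 of the 11 libraries was left out, list members past the threshold, up to 3 abundant members where none passed, Lepr and the cell markers. Arrdc4, Cst3, Aldh2, Hapln1, Inha, Gal, Sprr1a, C1qa, H2-Aa, Ifit1, Pdk4, Fos and Egr1, and the metal, carbohydrate and ER stress motifs, were added after their values or sequences were seen. Of 46 lists, those not described held 0 called genes or only genes described under another list. Alternatives changed the treatment of 0, the pseudocount, the filter, the scaling, the groups fitted, the weights and the libraries. Gene positions on mm9 came from GENCODE vM1 and promoters from RefSeq on GRCm38.p6. No library pair had identical values at more than 5.84% of the genes above 0 in both. The kidney tables were not used here.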

Additional observations from a re-analysis of the deposited data

Results flagged for a closer look

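Of 145 sets of values examined, 9 held a library far from the rest of its group, where chance gives about 1 in 20. Mt2 was at 66.93 FPKM in db/+ replicate 6, above the other db/+ libraries. Cd163 was at 0.76 FPKM in db/db replicate 1 and C1qc at 3.37 FPKM in db/+ replicate 2, each below its group. C1qa was at 8.51 FPKM in db/db replicate 4 and Pdk4 at 9.34 FPKM in db/db replicate 3, each above its group. The summed markers of skeletal muscle (471.3 FPKM) and adipocytes (42.28 FPKM) were high in db/db replicate 3, and those of adipocytes also in db/+ replicate 4 (39.38 FPKM). A gene listed at 0 adds nothing to these sums. The sum of satellite glia markers was 180 FPKM in db/+ replicate 5, where Glul had a value, while it was listed at 0 in the other 5 db/+ libraries.

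The effect of the db/db genotype in DRG minus that in SCN passed its own test for 8 named genes: Steap1 (1.47), Tmem158 (1.18), Inha (0.68), Elovl4 (0.50), Sord (-0.38), Pctp (-0.89), LOC100504676 (-0.94) and Ncan (-1.24). Elovl4 averaged 7.84 ± 1.52 FPKM in SCN of db/db and 12.6 ± 1.98 FPKM in SCN of db/+ (SD, n = 6 each).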

How the results depend on the processing

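Entering each 0 as a value of 0 removed the calls: 0 of 6642 genes passed in untreated DRG by limma (348 at an unadjusted p under 0.05), 0 in PIO-fed DRG, 1 for the difference between them and 6 for the difference between DRG and SCN. Under it 14 of the 57 named genes past the threshold turned direction, since a missing value then counts as the lowest one: Txnip (-0.32), 2410006H16Rik (-0.50), Ccnd1 (0.51), Rlbp1 (0.046), Matn4 (0.40), Lcat (0.18), Phlda1 (0.0656), Pctp (0.25), Kcnk3 (-0.87), Hspa5 (0.66), Hes6 (-0.55), Lgals3 (-1.19), F13a1 (-0.21) and Cst3 (-0.24), as did Igfbp5 (0.0874) and Oprd1 (0.0015), which had not passed. No other alternative turned the direction of a named gene past the threshold. Of the 57, 26 passed in every other alternative in which they were tested. A fold change of 1.5 was not among these alternatives, and Dusp1, which is 1 of the 26, was at 1.34-fold. Genes with few values were not tested in every fit. Nnat, Tmem114, Ccnd1 and Lgals3, also of the 26, were tested in 8 of 11 fits that left out 1 library. The count of 158 was 659 with array weights, 544 with only the compared groups fitted, 83 with values in 5 libraries per group and 30 with a fold change of 1.5. Leaving out 1 library gave 90 to 268, with 268 without db/+ PIO replicate 1. The count of 354 in PIO-fed DRG was 131 with only the compared groups, 226 with values in 5 libraries per group and 70 with a fold change of 1.5, and 244 to 385 without 1 library. The difference between untreated and PIO-fed DRG called 1 gene under quantile normalization and 0 to 1 without 1 library, and that between DRG and SCN 110 to 139. Under quantile normalization 45.2% and under median-of-ratios rescaling 68.2% of the calls for DRG against SCN had the higher effect in DRG, against 57.4% as deposited, and 57.6% of the PIO-fed calls were higher under quantile normalization, against 47.5%. The shares in untreated DRG were 63.2% and 61.2%, against 67.7%. Same-numbered db/db and db/+ libraries did not deviate together (r of -0.263 to -0.0134 over 730 genes), so no pairing by number was seen. That cannot exclude a shared step of handling. Libraries of other numbers did deviate together, such as db/db replicate 2 and db/+ replicate 5 (r of 0.544). With a replicate block the counts were 79 in untreated and 235 in PIO-fed DRG, 0 for their difference and 148 for DRG against SCN. What depth limits in a single library cannot be given from means per tissue.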
